A study of Mus musculus with 24 samples.

Results

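The genes described here are 10 transcription factors of developing sensory neurons, among 18193 genes that the arrays name: Neurog1, Neurog2, Neurod1, Neurod4, Nhlh1, Nhlh2, Pou4f1, Isl1, Prrxl1 (now Drgx) and Tlx3. They were chosen by symbol, and each was read from its probe set with the highest mean over the 24 arrays. Levels were log2 signals deposited by the authors after RMA, a summary of the probes of each probe set over all arrays. Of the 10 genes, 9 rose above the 30th percentile of an array (5.85 to 5.93) in at least 3 arrays and entered the tests. Neurod4 did so in fewer arrays and is given by its values alone. The jaws of C57B6 mouse embryos were dissected at embryonic day 12.5, and every mandible and maxilla was cut to give distal and proximal ends. Both genotypes, control and Tgfbr2 mutant, were collected from each of these 4 regions, with 3 arrays in each of the resulting 8 groups. Embryos came from matings of Wnt1cre;Tgfbr2fl/+ with Tgfbr2fl/fl mice. By this cross each embryo, controls included, inherits a floxed Tgfbr2 allele from the Tgfbr2fl/fl parent. The mutants were described by cleft palate and a calvarial defect, while for genotype the sample titles give only control or knockout. No label gives the alleles of the littermate controls. Wnt1-Cre acts in neural crest cells and in parts of the neural tube, so a mutant jaw also holds cells outside that lineage.

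Wnt1-Cre descendants include jaw mesenchyme, peripheral glia and part of the cranial sensory neurons. Other sensory neurons of the head arise from ectodermal placodes. In both sources a neurogenin commits a progenitor to neurogenesis and switches on NeuroD and Nhlh factors of the same basic helix-loop-helix (bHLH) class, while Notch signalling holds neighbouring cells back. Homeodomain factors such as Pou4f1 and Isl1 then act in the postmitotic sensory neuron. The nasal region, next to the maxilla, has its own Neurog1- and Neurod1-dependent olfactory lineage. Trigeminal neurons, whose axons enter both jaws, have their cell bodies in a ganglion at the proximal side of the jaws.

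The promoters of 4 members are shown because the proteins of the first layer bind E-boxes. These are short sites that begin with CA and end with TG. Each of the 4 windows shown holds a form searched below, and they are not the members most alike in value. Over the 24 arrays Pou4f1 had a Pearson's r of 0.89 with Isl1. With Prrxl1, whose window held neither form, it was 0.98. RefSeq promoter windows of 300 bases in build GRCm38.p6, 250 before the start of the gene to 50 after it, matched all 10 members, with a pair of windows for Neurod4. Both E-box forms searched, CAGATG and CAGCTG, are in capitals, on either strand, so CAGATG may read CATCTG. The Nhlh1 window is chr1:172057547-172057846 on the minus strand, Nhlh2 chr3:102009895-102010194 on the plus strand, Pou4f1 chr14:104467950-104468249 on the minus strand and Isl1 chr13:116309639-116309938 on the minus strand.
Nhlh1: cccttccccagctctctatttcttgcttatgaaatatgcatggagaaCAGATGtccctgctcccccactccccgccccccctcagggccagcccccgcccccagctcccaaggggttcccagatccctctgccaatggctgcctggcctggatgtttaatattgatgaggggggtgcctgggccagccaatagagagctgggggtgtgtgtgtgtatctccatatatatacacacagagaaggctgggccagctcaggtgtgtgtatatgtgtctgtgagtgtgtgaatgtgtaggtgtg
Nhlh2: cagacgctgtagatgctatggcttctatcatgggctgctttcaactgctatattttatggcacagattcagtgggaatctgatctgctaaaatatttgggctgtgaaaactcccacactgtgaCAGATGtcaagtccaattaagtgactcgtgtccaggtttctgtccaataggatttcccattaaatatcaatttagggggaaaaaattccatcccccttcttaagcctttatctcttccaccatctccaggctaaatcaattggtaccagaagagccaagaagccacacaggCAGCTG
Pou4f1: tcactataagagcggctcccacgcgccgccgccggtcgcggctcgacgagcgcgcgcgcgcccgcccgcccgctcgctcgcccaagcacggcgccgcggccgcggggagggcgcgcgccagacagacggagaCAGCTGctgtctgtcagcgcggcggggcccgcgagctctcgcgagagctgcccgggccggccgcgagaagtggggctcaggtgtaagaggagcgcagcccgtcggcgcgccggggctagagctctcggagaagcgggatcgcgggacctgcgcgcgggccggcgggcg
Isl1: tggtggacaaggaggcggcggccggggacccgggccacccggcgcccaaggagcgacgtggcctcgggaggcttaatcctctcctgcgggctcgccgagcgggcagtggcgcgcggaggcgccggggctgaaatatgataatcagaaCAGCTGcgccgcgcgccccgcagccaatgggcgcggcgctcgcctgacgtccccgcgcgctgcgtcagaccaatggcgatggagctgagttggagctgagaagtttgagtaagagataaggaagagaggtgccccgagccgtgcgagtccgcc
CAGATG stood in the windows of 2 members, Nhlh1 (203 bases before the start) and Nhlh2 (127 before), and in 17.2% of all 32851 windows. CAGCTG, which reads the same on both strands, stood in those of 4 members, Pou4f1 (118 before), Isl1 (103 before), Nhlh2 (44 after) and Neurod4 (4 after), and in 16.3% of all. The homeodomain core TAATTA stood in the Neurog1 window (199 before) and in 5.29% of all windows. A match describes these letters and is no evidence of binding.

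The series as a whole set the frame for reading these genes. Array medians lay between 7.26 and 7.38. Hand2, a lower jaw factor, had group means of 12.01 to 13.55 in mandible and 5.44 to 7.63 in maxilla, apart as the jaw labels say, and the mesenchyme factors Prrx1 and Twist1 had means of 12.28 to 13.57 in all 8 groups. Tgfbr2 itself, the targeted gene, was at 11.28 to 12.16 in the 12 control arrays and 11.30 to 12.68 in the 12 arrays labelled knockout, a change of 0.34 (SE 0.11; limma adjusted p = 0.112) that was not a decrease. The sources do not place its probe sets relative to the deleted part, so this does not check the labels, and genotype below is as labelled. In 7 arrays the rest of the expression profile lay nearer that jaw's opposite end than the array's own group: control maxilla distal 1 and 2, control maxilla proximal 1, knockout mandible distal 1 and 2, knockout mandible proximal 1 and knockout maxilla proximal 3. The 4 control arrays numbered 2 had the Y-linked gene Eif2s3y at 10.22 to 10.41, against 3.42 to 3.88 in the other 20 arrays, which therefore differ in sex from them. Calls that were lost without these arrays are named or counted with the comparison, or counted in the section on how the results depend on the processing. Whether different embryos gave the 3 arrays within each group is not labelled, so the p-values measure only the spread between arrays, and 3 arrays a group limit the precision. In whole tissue, fewer neurons and less RNA per neuron cannot be told apart.

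The members fell into 2 patterns, described after their values were seen. Neurog1, Neurod1, Nhlh1 and Nhlh2 were higher in every maxilla array than in any mandible array, in both genotypes, as were 1.88% of all genes tested. Pou4f1, Prrxl1 and Tlx3 were low, or near 1 level, across most arrays and stood up in only 2 of the 8 groups, control mandible proximal and knockout maxilla proximal. Isl1 was highest in knockout maxilla proximal (10.83 to 12.93), above every other group but control mandible proximal. It was lowest in knockout mandible proximal (9.09 to 9.31), below every other group. Its control mandible proximal arrays overlapped those of control mandible distal (distal minus proximal, -0.41). Neurod4, a bHLH factor, followed Pou4f1, Prrxl1 and Tlx3, and Neurog2 was near background except in single maxilla arrays. Over the 24 arrays, which share groups and RMA, Pearson's r was 0.98 for Neurog1 with Neurod1, 0.97 for Neurog1 with Nhlh1, 0.98 for Pou4f1 with Prrxl1 and 0.97 for Prrxl1 with Tlx3, but 0.20 for Neurog1 with Tlx3. These coefficients describe the separate clusters of arrays and carry no test.

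**Figure D1:**
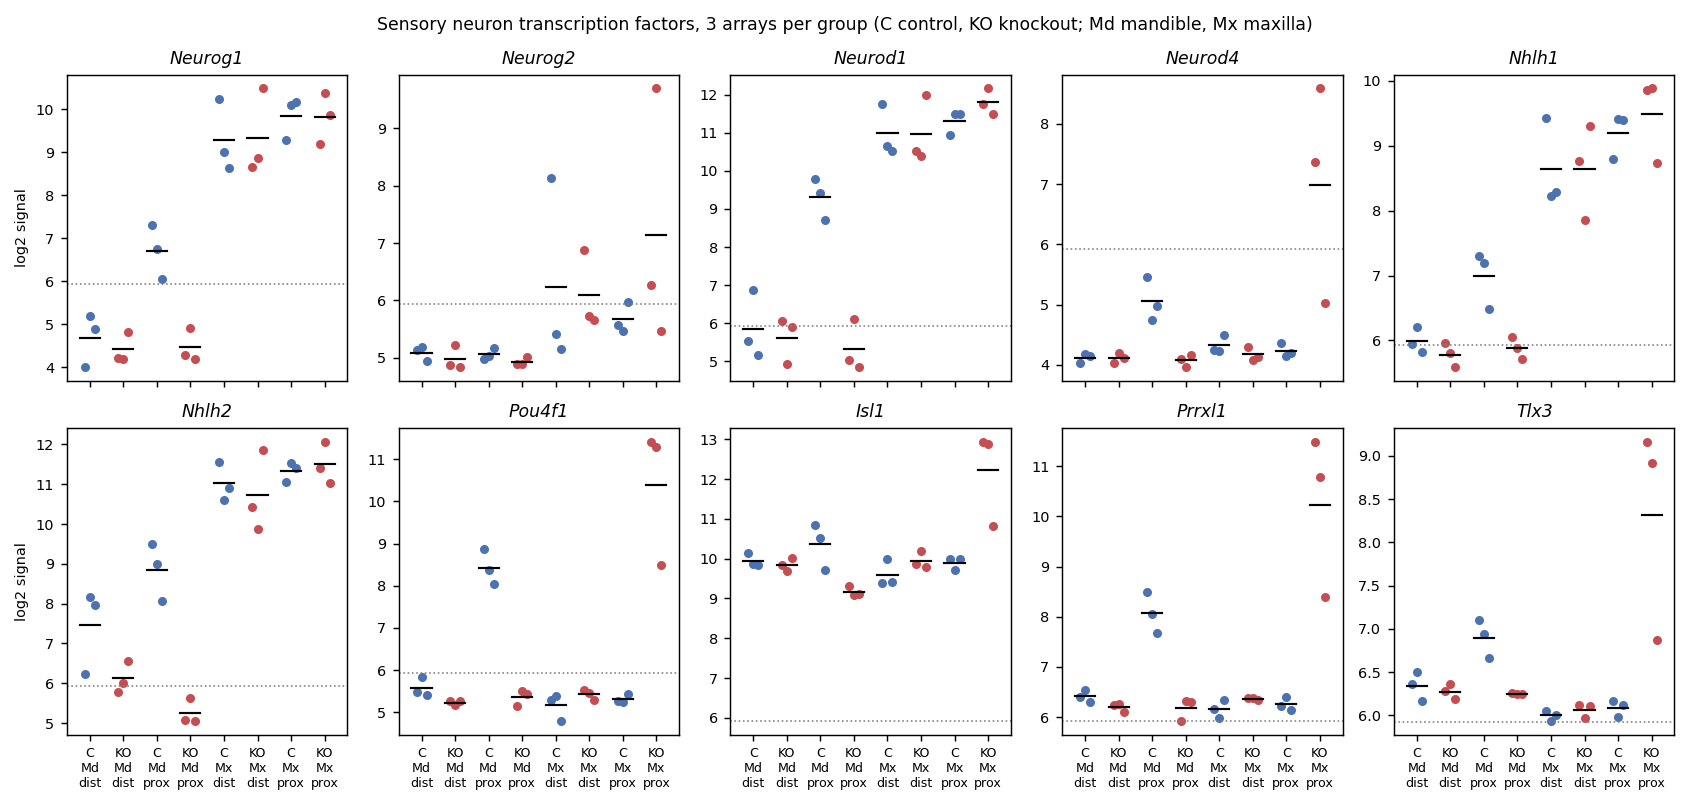
Log2 signal (y axis) of the 10 genes in the 8 groups (x axis), with blue points for control arrays, red points for knockout arrays, black bars for the means of 3 arrays and a dotted line at 5.93, the highest 30th percentile of any array. Neurog1, Neurod1, Nhlh1 and Nhlh2 are high in all maxilla groups, whereas Pou4f1, Prrxl1, Tlx3 and Neurod4 stand up in control mandible proximal and knockout maxilla proximal.

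Neurog1, the neurogenin needed for trigeminal neurons, was at 4.0, 5.18 and 4.88 in control mandible distal and at 7.30, 6.75 and 6.04 in control mandible proximal. In the maxilla, control arrays read 10.23, 9.0 and 8.63 at the distal end and 9.29, 10.09 and 10.16 at the proximal end. Knockout arrays read 4.22, 4.19 and 4.82 in mandible distal, 4.28, 4.92 and 4.18 in mandible proximal, 8.66, 8.87 and 10.48 in maxilla distal and 9.19, 10.38 and 9.87 in maxilla proximal. The 12 maxilla arrays (8.63 to 10.48) thus lay above the 12 mandible arrays (4.0 to 7.30), and among mandible groups only control mandible proximal lay wholly above the 30th percentile.

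Neurod1, a bHLH factor of neuronal differentiation that neurogenins switch on, also separated the jaws, and within mandible its control proximal arrays stood highest. Its control values were 5.54, 6.86 and 5.16 in mandible distal, 9.79, 9.43 and 8.72 in mandible proximal, 11.75, 10.66 and 10.53 in maxilla distal and 10.94, 11.50 and 11.50 in maxilla proximal. Knockout values were 6.05, 4.93 and 5.89 in mandible distal, 5.03, 6.10 and 4.85 in mandible proximal, 10.53, 10.40 and 12 in maxilla distal and 11.76, 12.16 and 11.48 in maxilla proximal. The knockout mandible proximal arrays overlapped the mandible distal arrays of both genotypes. All 3 control mandible proximal arrays (8.72 to 9.79) lay above these other mandible arrays, of which control mandible distal 2 was highest at 6.86.

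Nhlh2, a bHLH factor of newborn neurons, was at 6.24, 8.16 and 7.96 in control mandible distal and at 9.49, 8.99 and 8.07 in control mandible proximal, so these groups overlapped. Its knockout mandible arrays read 5.79, 6.0 and 6.57 distally, overlapping the control distal arrays, and 5.08, 5.64 and 5.06 proximally, below every control mandible array. In maxilla the control arrays read 11.56, 10.61 and 10.90 distally and 11.06, 11.54 and 11.40 proximally, and the knockout arrays 10.43, 9.88 and 11.86 distally and 11.41, 12.06 and 11.02 proximally. The knockout mandible proximal arrays were its lowest group. Its relative Nhlh1 spanned a smaller range, 5.59 to 7.30 in mandible and 7.85 to 9.88 in maxilla, and its highest mandible arrays were again those of control mandible proximal, at 7.30, 7.20 and 6.48.

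Pou4f1, the POU homeodomain factor of sensory neuron identity, read 8.88, 8.37 and 8.05 in control mandible proximal and 11.41, 11.29 and 8.50 in knockout maxilla proximal. All other 18 arrays lay between 4.80 and 5.83, below the 30th percentile, so the lower side of each Pou4f1 difference was at background. Pou4f1 entered the tests only through those 6 arrays, a choice that favours a call, and its changes and p-values below describe how far the high groups stood above background. The third knockout maxilla proximal array was close to the level of control mandible proximal and far below the other two of its group.

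Prrxl1, a paired-like homeodomain factor of pain-sensing circuits, read 8.50, 8.05 and 7.67 in control mandible proximal, 11.48, 10.79 and 8.39 in knockout maxilla proximal, and 5.93 to 6.54 in the other 18 arrays. Tlx3, a homeodomain factor that selects an excitatory fate, read 7.10, 6.94 and 6.66, then 9.16, 8.92 and 6.87, against 5.94 to 6.50 elsewhere. Isl1, a LIM homeodomain factor, read 10.85, 10.51 and 9.72, then 12.93, 12.89 and 10.83, against 9.09 to 10.19 elsewhere. Isl1 is also known in jaw epithelium and in branchial muscle progenitors, and it was well above the 30th percentile in all 24 arrays. For Isl1 the third control mandible proximal array fell inside the range of the other groups, whereas for Prrxl1 and Tlx3 the 6 arrays of the 2 groups lay above all others.

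Neurod4, a bHLH factor acting with Neurod1, was not tested. Its values were 5.45, 4.75 and 4.97 in control mandible proximal and 7.36, 8.59 and 5.02 in knockout maxilla proximal, against 3.96 to 4.49 in the other 18 arrays. Only 2 arrays, both knockout maxilla proximal, lay above the 30th percentile. Neurog2, the neurogenin used in the ganglia of the geniculate and nodose type, passed through 5 arrays. Its high values were in single arrays, 8.14 in control maxilla distal 1, 6.87 in knockout maxilla distal 1 and 6.27 and 9.69 in knockout maxilla proximal 1 and 2. In the 12 mandible arrays Neurog2 stayed between 4.84 and 5.22, and no comparison called it.

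Where a gene had further probe sets, most gave the same picture. The second Pou4f1 probe set read 7.07 to 7.98 in control mandible proximal, 7.33 to 10.38 in knockout maxilla proximal and no higher than 4.33 in any other group. The second Neurod1 probe set had group means of 4.89 and 8.56 in control mandible distal and proximal, 4.17 in knockout mandible proximal and 10.49 to 11.21 in the 4 maxilla groups. For Isl1 the second probe set was again highest in knockout maxilla proximal (10.34 to 12.43) and lowest in knockout mandible proximal (8.55 to 8.87). For Neurog1 the other probe set was flat, between 6.26 and 6.93 in all 24 arrays, and did not show the step between jaws. One further Neurod4 probe set gave 7.35, 8.24 and 4.94 in knockout maxilla proximal, and another stayed between 3.92 and 4.30 in all arrays.

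**Figure D2:**
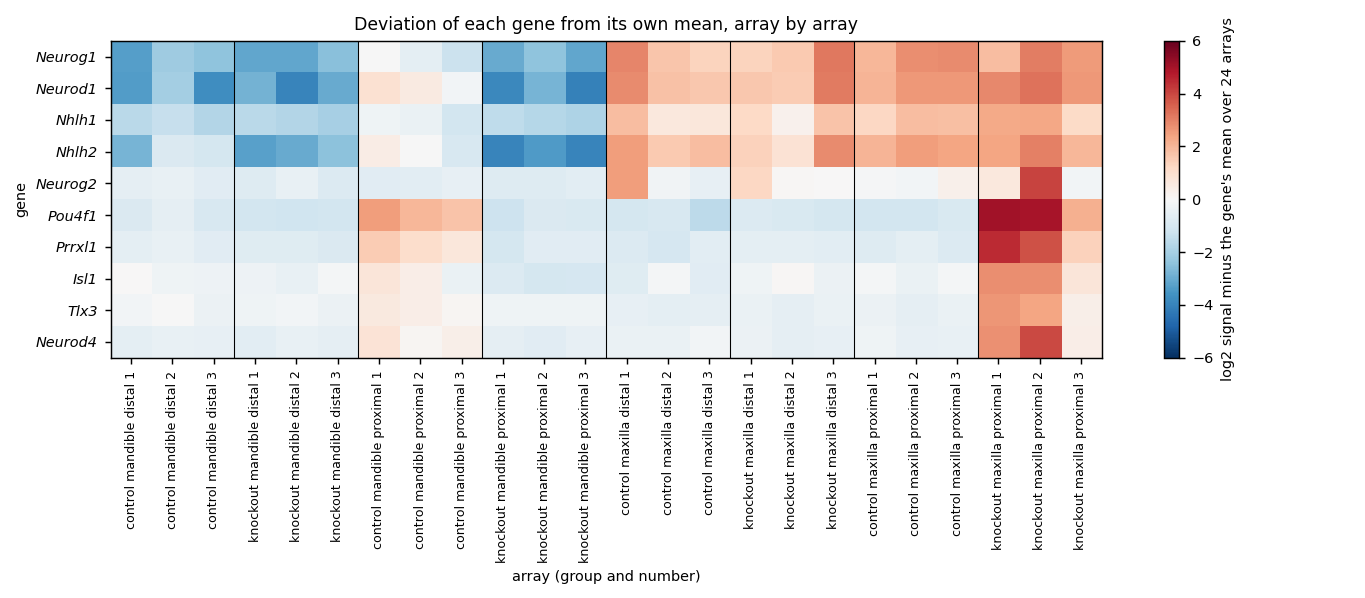
Each gene's log2 signal minus its own mean over 24 arrays (colour scale) for every gene (rows) and array (columns, separated by group). The first 4 rows are red over the 12 maxilla columns, and the rows of Pou4f1, Prrxl1, Tlx3 and Neurod4 are red in control mandible proximal and knockout maxilla proximal, deepest in arrays 1 and 2 of the latter, where Pou4f1 read 11.41 and 11.29.

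Low groups set a limit on the sizes below. In knockout mandible proximal Neurog1, Nhlh2 and Pou4f1 lay below the 30th percentile in all 3 arrays, and Neurod1 in all but 1, so a difference from that group is measured against background and its exact size and rank carry little. The same holds for Neurog1 in both mandible distal groups and for Pou4f1 in all but its 2 high groups. Outside these 2 groups Prrxl1 (5.93 to 6.54) and Tlx3 (5.94 to 6.50) lay little above the 30th percentile, so the sizes of their changes are also measured near background. The counts of members called describe these genes, some of which were tested only because of their high groups.

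The first comparison asked how the jaws differed at matched ends. In control distal ends, Neurod1 was lower in mandible than maxilla by -5.13 (SE 0.50; limma with Benjamini-Hochberg adjustment over 14879 genes, adjusted p = 1.25e-05), with Neurog1 at -4.60, Nhlh2 at -3.57 and Nhlh1 at -2.66, all 4 called at an adjusted p under 0.05. Of all genes 7.40% were called lower in this comparison, against 4 of 9 members, and the median change was -1.15 over the members. In control proximal ends the same 4 were lower in mandible (Neurog1 -3.15, Nhlh2 -2.48, Nhlh1 -2.21, Neurod1 -2.0), while Pou4f1 (3.12, adjusted p = 0.00086, limma) and Prrxl1 (1.81, adjusted p = 0.0146) were higher in mandible. The background there was 6.51% of genes called lower and 7.94% called higher. For Pou4f1 the maxilla side was at background (mean 5.31), and the gene was tested only because of its high groups. Of these 6 calls, Neurod1 was lost without the 4 control arrays numbered 2 (-1.97, limma adjusted p = 0.0736) or without control mandible proximal 3 (-1.70, 0.063). Prrxl1 was lost without the control arrays numbered 2 (1.90, adjusted p = 0.104), without control mandible proximal 1 (0.0659), without control maxilla proximal 1 (0.0538) or without control maxilla 1 and knockout mandible 1 at both ends (0.0758).

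In knockout distal ends the same 4 bHLH genes were lower in mandible (Neurod1 -5.36, Neurog1 -4.92, Nhlh2 -4.61, Nhlh1 -2.86), where 4.30% of genes were called lower. In knockout proximal ends 8 of 9 members were lower in mandible, where 7.04% of genes were called lower. The changes ran from Neurod1 at -6.47, Nhlh2 at -6.24 and Neurog1 at -5.35 to Isl1 at -3.05 and Tlx3 at -2.06, and included Pou4f1 at -5.03. The mandible side of the Pou4f1 change was at background (mean 5.37), and the gene was tested only because of its high groups. The direction of the Pou4f1 and Prrxl1 difference was thus opposite to that of the control proximal ends. Neurog2, at -2.20, missed the threshold (limma adjusted p = 0.072), with its 3 mandible arrays below its 3 maxilla arrays.

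A list of 13 olfactory, forebrain and eye markers, 9 of which could be tested, moved with the bHLH step between jaws. Its mean log2 signal was 6.18 to 6.48 in the mandible arrays and 7.01 to 9.62 in the maxilla arrays. In control proximal ends 6 of the 9 were called lower in mandible, with Otx2 at -5.48, Sp8 at -5.43, Lhx2 at -4.23 and Olig2 at -3.80, and the median was -3.24. In knockout maxilla proximal the list read 7.01, 8.19 and 8.80, below the 8.86, 9.29 and 9.22 of control maxilla proximal, although Neurog1 was about level between these groups. Skeletal muscle markers ran the other way, with 9 of 9 called higher in control mandible proximal than in control maxilla proximal and a median of 4.21. The part of these tissues in the members' levels was not tested.

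**Figure D3:**
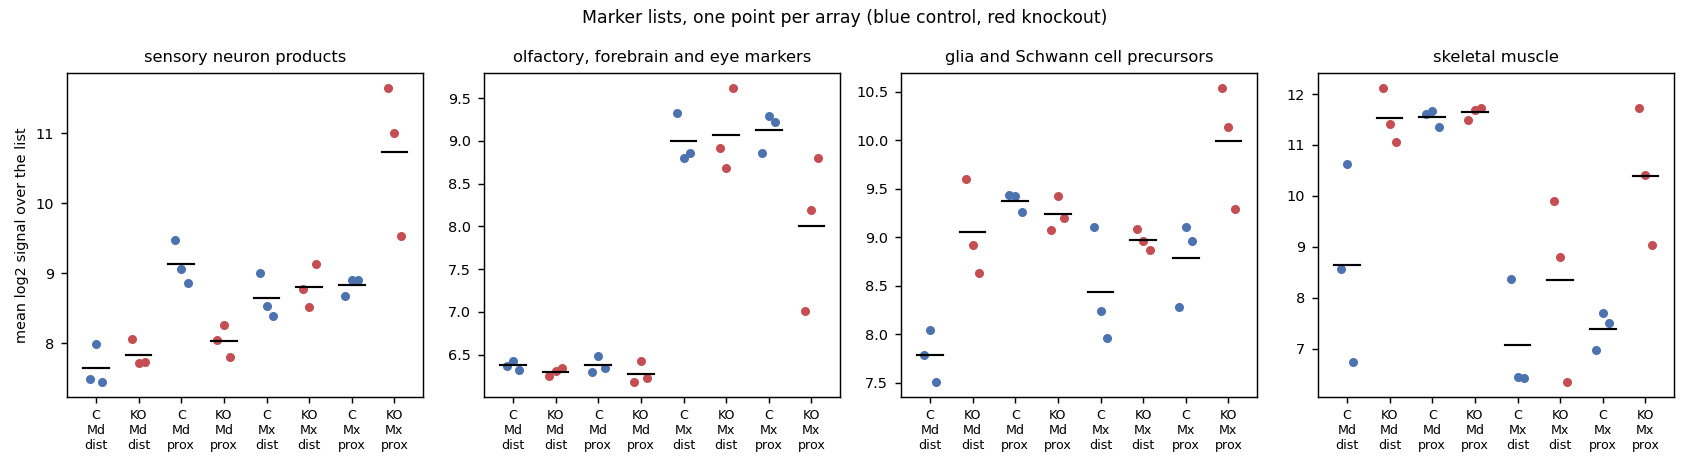
Mean log2 signal of 4 marker lists (y axes) in the 8 groups (x axis), 1 point per array, blue for control and red for knockout, with bars at the means. Sensory neuron products are highest in knockout maxilla proximal (9.53 to 11.65), and olfactory, forebrain and eye markers separate maxilla from mandible.

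The second comparison asked whether the ends of a jaw differed. In control mandible, Neurod1 was lower distally by -3.46 (SE 0.50, limma adjusted p = 0.00339), Pou4f1 by -2.86 (SE 0.48, adjusted p = 0.00601) and Neurog1 by -2.01 (SE 0.50, adjusted p = 0.0332). These 3 of 9 members were called lower, against 2.34% of all genes. Pou4f1 was tested only because of its 2 high groups, control mandible proximal among them. Its value describes how far that group stood above background (distal mean 5.58). Prrxl1 (-1.65, adjusted p = 0.0568), Nhlh2 (-1.40), Nhlh1 (-1.01), Tlx3 (-0.56) and Isl1 (-0.41) did not pass. The number called was 1 without the 4 control arrays numbered 2, where Pou4f1 (-3.01, limma adjusted p = 0.0696) and Neurog1 (-2.23, 0.145) lost their calls. It was 5 without knockout maxilla proximal 3. Neurog1 missed the threshold in 5 of the fits that left out 1 array of control mandible, for example at 0.163 without control mandible proximal 1.

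Sensory neuron products were lower distally in control mandible as well, 12 of 24 called with a median of -1.56, and Nefm had -4.17, Nefl -4.0 and Prph -2.88. So were other cell markers, with 5 of 7 glial genes called lower (median -1.39; Fabp7 -3.42, Cdh19 -2.14) and 2 of 9 muscle genes (median -2.91; Ttn -3.57). Their part in the end-to-end step of the members was not tested. In control maxilla, where no member was called, none of these 3 lists had a called gene by limma, and their medians were -0.20, -0.35 and -0.23.

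In control maxilla no member was called between the ends, and the changes lay between -0.56 and 0.57. Limma called 0 of all genes there, and 103 had an unadjusted p under 0.05. In knockout mandible 0 genes were called as well, with 72 at an unadjusted p under 0.05. Both jaws hold arrays that lay nearer the opposite end, so 0 calls do not show that the ends were alike. Without control maxilla 1 and knockout mandible 1 at both ends, limma called 104 genes in control maxilla and 16 in knockout mandible, with no member among them. In knockout mandible Nhlh2 (0.85) and Isl1 (0.68) were higher distally with arrays that did not overlap, as in 0.726% of all genes. Both members had the opposite sign in control mandible. The difference between the genotypes in this end-to-end step was tested and gave 0 calls of all genes, with 774 at an unadjusted p under 0.05. Its largest values among members were 3.75 for Neurod1 (limma adjusted p = 0.502) and 2.72 for Pou4f1 (adjusted p = 0.588). Without knockout maxilla proximal 3, 2 members were called in this term.

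In knockout maxilla the 4 homeodomain genes were lower distally, Pou4f1 by -4.98 (limma adjusted p = 3.18e-05), Prrxl1 by -3.85 (0.000435), Isl1 by -2.27 (0.00713) and Tlx3 by -2.24 (0.00461), where 3.26% of all genes were called lower. For Pou4f1 the distal side was at background (mean 5.42), and the gene was tested only because of its high groups. No bHLH member was called. Their changes were -0.48 for Neurog1, -0.77 for Nhlh2, -0.82 for Neurod1, -0.85 for Nhlh1 and -1.06 for Neurog2. Without knockout maxilla proximal 1 and 2, the calls fell to 2, and a fit on these groups alone made 0.

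The third comparison asked what the knockout label went with in each region. In mandible proximal, Neurod1 was lower in knockout by -3.98 (SE 0.50, limma adjusted p = 0.00336), Nhlh2 by -3.59 (SE 0.51, adjusted p = 0.00981) and Pou4f1 by -3.07 (SE 0.48, adjusted p = 0.0185). Only 8 genes of all were called in this region, and 0.0403% were called lower. The knockout side of Pou4f1 was at background (mean 5.37), and the gene was tested only because of its high groups. Neurog1 (-2.24), Prrxl1 (-1.89), Isl1 (-1.20), Nhlh1 (-1.11) and Tlx3 (-0.65) did not pass, at limma adjusted p from 0.243 for Neurog1 to 1. The arrays of the 2 genotypes did not overlap for 8 of 9 members, all lower in knockout, as for 4.15% of all genes. Neurog2 overlapped. The median change was -1.89 over the members and 0.00 over all genes.

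These calls in mandible proximal turned on single arrays. Leaving out control mandible proximal 1 or knockout mandible proximal 3 left 0 of the 3, leaving out control mandible proximal 2 or knockout mandible proximal 1 left 1, and leaving out knockout maxilla proximal 3 gave 6. Without the 4 control arrays numbered 2 there were 0, and with only the groups compared 0. The sizes moved little over the 37 settings tried, Neurod1 staying between -4.40 and -3.74, Nhlh2 between -3.98 and -3.27 and Pou4f1 between -3.30 and -2.84.

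Other neuronal genes in mandible proximal were described by lists. The list of sensory neuron products held neurofilaments, receptors and channels, and also genes of neurons in general such as Elavl3 and Elavl4. It is therefore not specific to sensory neurons. Of its 24 tested genes, 21 had a negative change with a median of -0.90, and none was called by limma. Peripherin, Prph, had -3.06 (adjusted p = 0.134), Sncg -1.60 and Nefm -1.18. The mean signal of the list was 8.86 to 9.48 in the control arrays and 7.81 to 8.26 in the knockout arrays. Of 27 tested other sensory neuron regulators none was called, and Onecut2 had -2.65 (adjusted p = 0.455). Markers of glia and Schwann cell precursors were at 9.26 to 9.44 in control and 9.08 to 9.43 in knockout, with 0 of 7 called and a median of -0.05. Skeletal muscle markers were at 11.35 to 11.67 and 11.50 to 11.73, with a median of 0.10. Unlike the neuronal products, these lists overlapped between genotypes here.

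In maxilla proximal the homeodomain genes moved the other way. Pou4f1 was higher in knockout by 5.09 (SE 0.48, limma adjusted p = 2.25e-05) over controls at background (mean 5.31), Prrxl1 by 3.96 (SE 0.46, adjusted p = 0.000331), Isl1 by 2.31 (SE 0.39, adjusted p = 0.00767) and Tlx3 by 2.22 (SE 0.35, adjusted p = 0.0049). These 4 of 9 members stood against 3.25% of all genes called higher, and for each of the 4 the arrays of the genotypes did not overlap, as for 10.8% of all genes. The bHLH genes did not pass, with Neurog2 at 1.48 (adjusted p = 0.242), Neurod1 at 0.48, Nhlh1 at 0.29, Nhlh2 at 0.17 and Neurog1 at -0.03. Without the 4 control arrays numbered 2, Isl1 (2.22) and Tlx3 (2.17) lost their calls, both at a limma adjusted p of 0.11. Both also lost them without control maxilla 1 and knockout mandible 1 at both ends, at 0.0836. Leaving out knockout maxilla proximal 2 left 2 of the 4 calls, with Isl1 at an adjusted p of 0.067 and Tlx3 at 0.0558. Without arrays 1 and 2 of this group, Isl1 had 0.93 and Tlx3 0.78, both uncalled. Pou4f1 and Prrxl1 lost their calls only with the 2 groups fitted alone, at an adjusted p of 0.325.

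Sensory neuron products rose with them, 13 of 24 called higher with a median of 1.79. Sncg, a synuclein of sensory neurons, had 4.65 (limma adjusted p = 6.51e-05), and the neurofilament genes Nefm, Nefl and Prph had 4.27, 3.90 and 3.40. Among the other sensory neuron regulators 9 of 27 were called higher, led by Onecut2 (4.05), and Eya1, a gene of the placode network, was called lower (-1.21). The product list read 11.65, 11.01 and 9.53 in knockout maxilla proximal 1, 2 and 3, and the array lowest for the products was also the lowest for Pou4f1.

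Markers of other cells moved with this result. Glial markers read 10.54, 10.14 and 9.29 in knockout maxilla proximal and 8.28, 9.11 and 8.96 in control, with Fabp7 (3.16), Cdh19 (1.53) and Foxd3 (1.05) called among 7. Muscle markers read 11.73, 10.41 and 9.03 against 6.97, 7.70 and 7.51, with a median change of 3.17 and 1 of 9 called. Olfactory, forebrain and eye markers had 3 of 9 called lower, among them Sp8 (-3.34) and Otx2 (-2.54). All 3 lists separated the same arrays as the homeodomain genes, in one direction or the other, and their part in the result was not tested.

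At the distal ends no member was called. In mandible distal all 9 members had a negative change and none was called by limma, with Nhlh2 at -1.33 (adjusted p = 0.275), where 20 genes were called and 0.0134% were called lower. In maxilla distal the changes lay between -0.30 and 0.34, none was called, and 0.0202% of all genes were. Averaged over the 4 regions, Nhlh2 was the only member called, at -1.26 (SE 0.25, limma adjusted p = 0.0347), where 0.188% of genes were called lower. With genotype and number as a random replicate block the same -1.26 had a limma adjusted p of 0.221 and was not called. That average combined -3.59 in mandible proximal with 0.17 in maxilla proximal. No member was called in 17 of 24 fits that each left out 1 array, 2 were without knockout mandible distal 3 or knockout maxilla distal 3, and 6 were without knockout maxilla proximal 3.

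**Figure D4:**
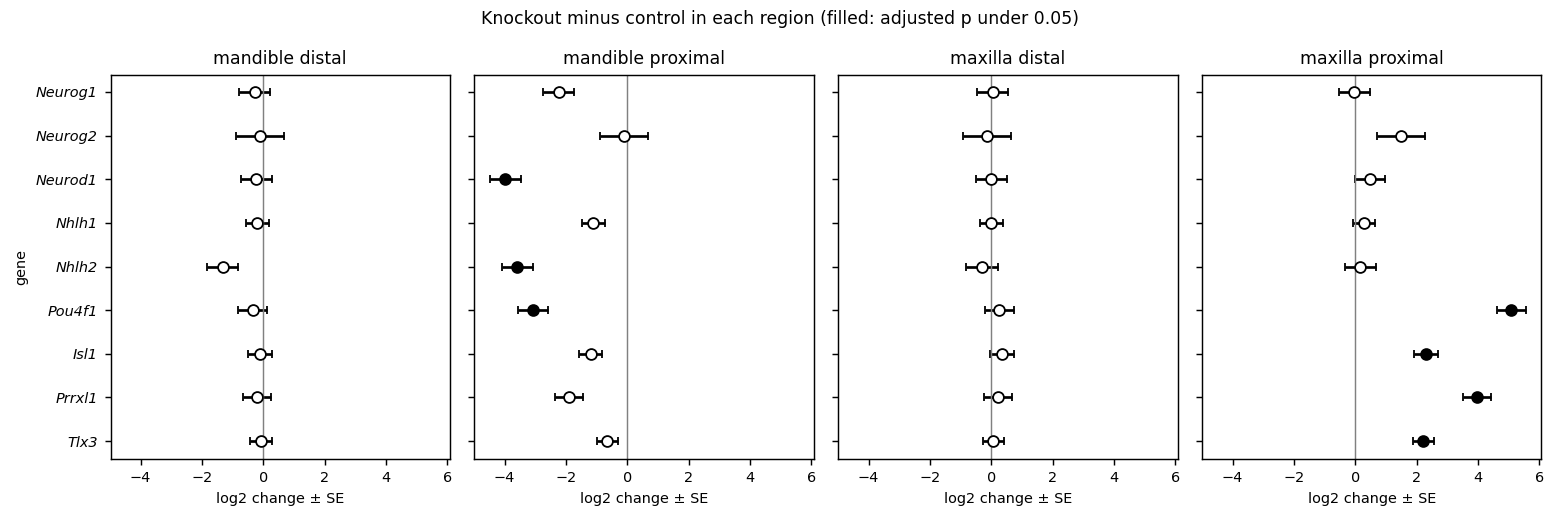
Log2 change of knockout minus control (x axis, bars for SE) of the 9 tested genes (rows) in the 4 regions, with filled points at an adjusted p under 0.05. Points lie left of 0 in mandible proximal (Neurod1 -3.98, Nhlh2 -3.59, Pou4f1 -3.07 filled) and the homeodomain genes lie right of 0 in maxilla proximal (Pou4f1 5.09).

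The knockout change was set against itself between the proximal ends, mandible minus maxilla, in a term of the same fit. Pou4f1 differed by -8.15 (SE 0.68, limma adjusted p = 3.11e-06), with the low side of both its changes at background (means 5.37 and 5.31), Prrxl1 by -5.85 (SE 0.66, adjusted p = 0.000139), Neurod1 by -4.47 (SE 0.70, adjusted p = 0.00526), Nhlh2 by -3.75 (SE 0.72, adjusted p = 0.0199), Isl1 by -3.51 (SE 0.55, adjusted p = 0.00526) and Tlx3 by -2.87 (SE 0.50, adjusted p = 0.0117). These 6 of 9 members compared with 0.423% of all genes called lower. Neurog1 (-2.20), Nhlh1 (-1.40) and Neurog2 (-1.60) did not pass. For Pou4f1 the difference joined a fall in mandible with a rise in maxilla. For Neurod1 and Nhlh2 it came with a fall in mandible and no called change in maxilla. Sensory neuron products were called lower in 12 of 24 cases in this term, with a median of -2.69. Without control arrays numbered 2, or without control maxilla 1 and knockout mandible 1 at both ends, 2 members kept a call, while Nhlh2 lost its call in 8 of the 24 fits that left out 1 array. The comparisons above share groups of arrays with each other, so their values are not independent.

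Genes whose values over the 24 arrays followed a member most closely were found by Pearson's r, as a description. The mean deviation of the tested members had the nearest neighbours Mreg, Slc17a6, which loads glutamate into vesicles, and Rtn1 (r = 0.98), Scn9a, a sodium channel of pain-sensing neurons, Celsr3 and Brsk2 (0.97), and the neurofilament-related Ina with Soga3 (0.96). Neurog1 was followed by Insm1 (0.98) and St18 (0.97), Nhlh1 by Elavl3 and St18 (0.98), Neurod1 by Elavl4 and Ina (0.97), and Nhlh2 by Elavl4 (0.94) and St18 (0.93). Pou4f1 was followed by Ppp1r1c (0.99) and Ppp1r17 (0.97), Prrxl1 by Trim67 and Ppp1r1c (0.98), Tlx3 by Trim67 (0.98) and Gm16551 (0.97), and Isl1 by its relative Isl2 and Trim67 (0.94). Neurog2 was followed by Mir124-2hg and Hes5 (0.92). The bHLH genes and the homeodomain genes shared no neighbour in this list.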

How the data were processed

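RNA of mouse jaw ends was hybridised to 24 one-colour arrays. The authors deposited log2 signals made with RMA, per the submitters' processing notes; other steps are not given in the sources used here. Of 45101 probe sets, 34945 had 1 gene symbol in the platform annotation, 932 several, 9160 none and 64 were controls; 34741 were matched to current symbols by Entrez number. A gene was its probe set with the highest mean. Genes above an array's 30th percentile in at least 3 arrays were tested (14879 genes). Limma 3.58.1 in R 4.3.3 fitted 8 group means with 16 residual degrees of freedom, and Benjamini-Hochberg adjustment ran over all tested genes within a comparison (threshold 0.05). The fit was tested on simulated data. The members, lists and tests were chosen with earlier results of these data known, so they are no independent support. Named besides the members were the 8 genes closest to their mean, 2 per member, Tgfbr2 and up to 4 genes of a list in a comparison. The lists were sensory neuron products, other sensory regulators, Notch signalling, autonomic and motor, olfactory, forebrain and eye, glial, muscle and jaw tissue genes. Alternatives changed the filter, centring between arrays, gene rule, weights, block and arrays. No 2 arrays held the same values (smallest root mean square difference 0.196).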

Additional observations from a re-analysis of the deposited data

Results flagged for a closer look

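In the proximal ends, the change that went with the knockout label differed between mandible and maxilla for 6 members, by a term of the limma fit. The differences, mandible minus maxilla, were -8.15 for Pou4f1 (the low side of both its changes at background), -5.85 for Prrxl1, -4.47 for Neurod1, -3.75 for Nhlh2, -3.51 for Isl1 and -2.87 for Tlx3.

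In 3 further cases all arrays moved one way in one setting and the other way in another, and the difference was not tested. Isl1 had 0.68, distal minus proximal, in knockout mandible and -2.27 in knockout maxilla. Pou4f1 had 0.42, mandible minus maxilla, in control distal ends and -0.20 in knockout distal ends, with all its values there below the 30th percentile. Tlx3 had 0.20, mandible minus maxilla, in knockout distal ends and -2.06 in knockout proximal ends.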

How the results depend on the processing

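Of 65 member changes followed, 43 were called, and none reversed sign as a called value under the 37 settings tried. The number of members called moved as follows. Array weights gave 7 for the ends of control mandible, 8 for knockout in mandible proximal, 6 for knockout over the 4 regions and 4 for the difference between genotypes in the ends of mandible. With only the groups compared in the fit, the numbers were 6 for the ends of control mandible, 0 for the ends of knockout maxilla, 4 for the jaws in knockout proximal ends, 0 for knockout in mandible proximal, 0 in maxilla proximal, 3 for the difference between jaws and 1 for that between ends. Without the 4 control arrays numbered 2, they were 1 for the ends of control mandible, 0 and 2 for knockout in mandible and maxilla proximal, 0 over the 4 regions and 2 for the difference between jaws. Without control maxilla 1 and knockout mandible 1 at both ends, they were 1 and 2 for knockout in mandible and maxilla proximal, 0 over the 4 regions and 2 for the difference between jaws. Without knockout maxilla proximal 1 and 2, they were 5 and 2 for the ends of control mandible and knockout maxilla, 6 and 2 for knockout in mandible and maxilla proximal, 0 over the 4 regions and 2 for the difference between ends. The causes were not tested, beyond the fewer arrays in these fits.

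Leaving out 1 array at a time gave 2 to 5 members for the ends of control mandible, 3 to 5 for those of knockout maxilla, 4 to 5, 5 to 7, 4 to 4 and 8 to 9 for the jaws in control distal, control proximal, knockout distal and knockout proximal ends, 0 to 6 and 2 to 5 for knockout in mandible and maxilla proximal, 0 to 6 over the 4 regions, 4 to 7 for the difference between jaws and 0 to 2 for that between ends. It gave 0 throughout for the ends of control maxilla and knockout mandible and for knockout at both distal ends. The number as a fixed replicate block gave 2 members over the 4 regions, and genotype and number as a random replicate block (consensus correlation 0.16) gave 0; neither block moved another count of members by over 1.5 times. Deviations of arrays with the same number and genotype had a median correlation of 0.15 (-0.65 to 0.54), 23 of 36 over 0.1. Between arrays with other numbers the median was -0.06 (-0.60 to 0.57), 32 of 168 over 0.1. For arrays with the same number and the other genotype it was 0.04 (-0.34 to 0.43), 20 of 48 over 0.1. Arrays that shared number and genotype were thus most alike, and those that shared only the number came between, with wide overlap. The labels do not say whether arrays of the same number and genotype share an embryo. The main fit did not pair arrays by number, and only the block settings used it.

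Counts over all genes moved more. Knockout in maxilla proximal called 859 genes, from 0 with only the groups compared to 3366 without knockout maxilla proximal 3. In mandible proximal 8 ranged from 0 to 294, over the 4 regions 70 from 6 to 2906, for the difference between jaws 104 from 5 to 2194, for the ends of control mandible 513 from 27 to 2504 and for those of knockout maxilla 917 from 1 to 3279, in each of these 5 with the highest under array weights. For the jaws the counts were 2086 (514 to 3288) in control distal, 2151 (649 to 6001) in control proximal, 1173 (270 to 2507) in knockout distal and 1897 (26 to 3327) in knockout proximal ends. Knockout called 20 (0 to 642) in mandible distal and 3 (0 to 14) in maxilla distal. The ends of control maxilla, at 0, reached 104, and those of knockout mandible, also at 0, reached 16. Both did so without control maxilla 1 and knockout mandible 1 at both ends. The difference between ends, at 0 as well, reached 87 with array weights. Signals at or below the 30th percentile limit Pou4f1, Neurog2 and Neurod4 outside their high groups, and Neurog1, Neurod1, Nhlh1 and Nhlh2 in parts of the mandible.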

Other observations

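The Notch list, of ligands, a receptor and bHLH repressors that restrain neurogenesis, with Mfng, Lfng and Id genes besides, gave another view of the step between jaws. Of its 15 genes none was called in knockout against control in any of the 4 regions, by limma over all genes. In control proximal ends 4 of the 15 were called lower in mandible, Id4 (-1.68), Mfng (-1.39), Hey1 (-1.25) and Jag2 (-0.62), where 6.51% of all genes were called lower. The median of the list was -0.16, and 5 of its genes had a positive change.

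Markers of autonomic and motor neurons were few, with 4 of 8 genes on the arrays tested. In maxilla proximal Th, the enzyme of catecholamine synthesis, had 2.69 (limma adjusted p = 0.0124) and Gfra3, a receptor subunit also present in sensory neurons, had 1.44 (adjusted p = 0.0161), both higher in knockout. These 2 of 4 stood against 3.25% of all genes called higher, and the median of the 4 was 0.77. Of the 8 genes, 4 lay at or below the 30th percentile in all 3 knockout maxilla proximal arrays. In mandible proximal 0 of the 4 were called.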
